A study of Homo sapiens with 18 samples.

Results

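MX1, MX2 and RSAD2 are 3 antiviral effector genes of the interferon response. Their RNA was followed here across 18 libraries of poly(A) RNA from THP-1. This is an established human line of monocytic acute myeloid leukaemia, driven by an MLL-AF9 fusion. The genes were taken by name, as 3 of the 19784 genes listed in every library, and all 3 were high enough to be tested in both experiments. The study asks how a histone demethylase, PHF8, bears on the type I interferon response and self-renewal of this leukaemia. Levels are given as CPM, the reads over a gene per 1e6 reads of the library. Means carry the SD over libraries.

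The first experiment held 3 groups of 4 libraries. They were parental THP-1 (wt), THP-1 with PHF8 and THP-1 with F279S, a form of PHF8 known to lack catalytic activity. The second held 3 groups of 2 libraries from day 3. ERAA carries the form labelled PHF8AA and ERDD the form labelled PHF8DD, and both are labelled with 4-OHT (4-hydroxytamoxifen, 100 nM). ERPHF8 carries PHF8 and has no treatment label, so any comparison with it is also a comparison across that label. All cells were kept in DMEM with serum. How the forms were introduced, whether a line is 1 clone, and what AA and DD stand for was not given in the sources used here. No label says that libraries came from separate cultures, so the p-values measure the spread between these libraries, which may be technical.

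MX1 (the protein MxA) and MX2 (MxB) are GTPases of the dynamin family that assemble into rings or filaments and block incoming viruses, MxA mainly in the cytoplasm and MxB at the nuclear pore. RSAD2 encodes viperin, a radical SAM enzyme with an iron-sulphur cluster that turns CTP into the chain terminator ddhCTP. Type I interferon induces all of them through its receptor, the kinases JAK1 and TYK2, and ISGF3, a complex that includes STAT2 and IRF9 and binds the interferon-stimulated response element in promoters. Myeloid cells are among the cell types that induce them strongly.

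MX2 and MX1 are neighbours on the same strand of chromosome 21. As deposited on hg38, MX2 spans 41361943 to 41409390 and MX1 spans 41420304 to 41459214, with 10914 bases and no other listed gene between them. RSAD2 lies on chromosome 2 from 6865806 to 6898239. Its first 830 bases overlap CMPK2 (6840570 to 6866635), the kinase that supplies viperin's substrate, which runs the other way. The gene length behind the deposited RPKM was the whole span, introns included. Whether intron reads were counted was not given in the sources used here. No source states a strand setting, so reads in that overlap cannot be told apart between the genes. Exons of any transcript cover 22.1% of the MX1 span, 27.5% of the MX2 span and 14.9% of the RSAD2 span in GENCODE release 29.

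The promoter windows of MX1 and RSAD2 are shown because the genes belong to the class that ISGF3 and the interferon regulatory factors bind. RefSeq promoters (GRCh38.p14, 250 bases before to 50 after a start) were at hand for MX1 (3 starts) and RSAD2 (2 starts). They were searched on both strands for GAAANGAAA and for the core of the interferon-stimulated response element, GAAA and GAAA with any 2 bases between them, overlapping matches included. TTTC marks a match on the minus strand. Capitals mark the match, and every window is 30 bases of the plus strand.
MX1, start at 41426239, chr21:41426115-41426144: caggagctaggTTTCGTTTCtgcgcccgga
MX1, same start, chr21:41426160-41426189: gggtctgtgagTTTCATTTCttcgcggcgc
MX1, start at 41420558, chr21:41420559-41420588: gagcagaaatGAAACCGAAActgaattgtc
RSAD2, start at 6865885, chr2:6865722-6865751: gccccgcctcgGAAACGAAAcctggcggga
RSAD2, same start, chr2:6865790-6865819: ggcgccagcggGAAACGAAAgcgaagcgtt
RSAD2, start at 6877777, chr2:6877622-6877651: ctgtttcaacTTTCAGTTTCacatgtggaa
The RSAD2 start at 6865885 had 4 copies of GAAACGAAA, at positions -152, -118, -84 and -60. All 5 promoters held at least 1 match of either form, against 6.40% of the 35116 RefSeq promoters of 300 bases (3.12% for GAAANGAAA and 3.57% for the form with 2 bases between). A match describes these letters and is no evidence that a factor binds there.

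Library totals were 18.2 to 51.5 M reads in the first experiment and 40.6 to 41.3 M in the second. The members had between 78 reads (MX1 in wt library 4) and 19069 reads (MX1 in ERDD library 2). PHF8 RNA followed the labels, with 50.6 ± 3.99 CPM in wt, 2020.5 ± 89.6 in PHF8 and 5381 ± 320.2 in F279S (n = 4 each). ERAA had 2150.4 ± 219.1 CPM, ERDD 1109 ± 14.8 CPM and ERPHF8 1906 ± 8.51 CPM (n = 2 each). In the first experiment, libraries 1 and 2 of each line stood apart from libraries 3 and 4 (the library pairs). Between the pairs, 60.4% of tested genes differed in wt, 27.1% in PHF8 and 57.7% in F279S (limma, adjusted p below 0.05). The labels do not say what the pairs are. The 11 monocyte markers were all expressed (lowest value 2.25 CPM, CD14). Of 15 markers of other cells, 12 stayed at or under 1.72 CPM in every library. COL1A1 reached 13.3 CPM in PHF8 library 1 and 20.5 CPM in F279S library 2, and COL1A2 10.0 and 10.2 CPM there, against at most 4.83 and 0.247 CPM in the other libraries. In bulk RNA, fewer cells of a type and less RNA per cell cannot be told apart. The part of these transcripts in the results below was not tested. Without those 2 libraries, the log2 fold changes of MX1, MX2 and RSAD2 (fitted as described below) were 0.78, 0.45 and 1.18 in PHF8 against wt (adjusted p = 0.191, 0.00172 and 0.000253 by limma). They were 0.40, 0.19 and -0.04 in F279S against wt (adjusted p = 1.00 for each) and 0.37, 0.26 and 1.22 in PHF8 against F279S (adjusted p = 0.639, 0.0424 and 0.000483 by limma).

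**Figure D1:**
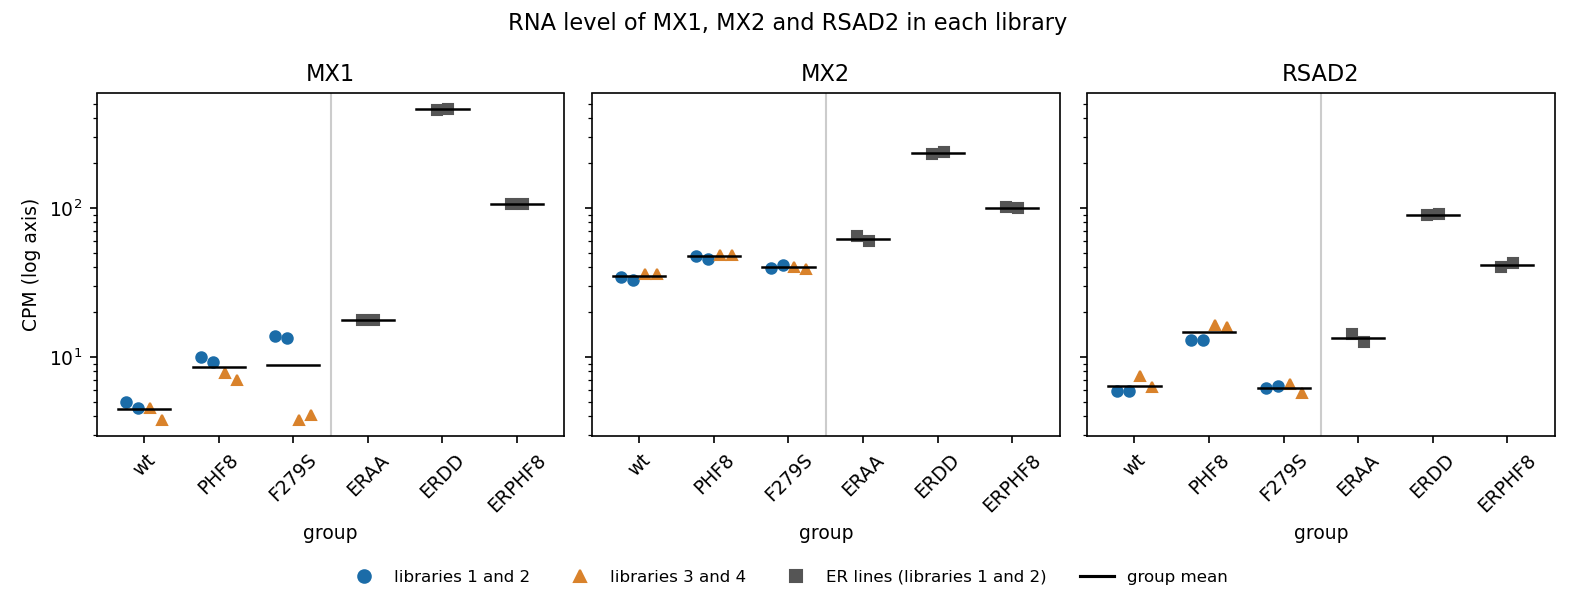
RNA level of each gene in every library (CPM, log axis), by group. Circles are libraries 1 and 2 and triangles libraries 3 and 4 of the first experiment, squares are the ER lines, and bars are group means. All 3 genes were highest in ERDD, and MX1 in F279S split between 13.4 to 13.8 CPM and 3.74 to 4.10 CPM.

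Added PHF8 was asked about first, as the difference between PHF8 and wt. RSAD2 and MX2 rose, RSAD2 2.29-fold and MX2 1.37-fold. MX1 was 1.91-fold higher in the mean and did not pass the test when the library pairs were ignored. In this comparison 12.7% of tested genes were called higher and 8.28% lower, and the values of the groups did not overlap for 26.2% of genes, so 2 of 3 called members stand against that background.

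RSAD2 was at 5.91, 5.87, 7.38 and 6.30 CPM in wt libraries 1 to 4 and at 13.1, 12.99, 16.5 and 15.9 CPM in PHF8. Every PHF8 library lay above every wt library, and PHF8 libraries 3 and 4 were the highest. The log2 fold change, on the log2(CPM + 0.5) scale used throughout, was 1.13 ± 0.11 (SE, adjusted p = 2.5e-05 by limma, 95% interval 0.90 to 1.37). Within libraries 1 and 2 it was 1.08, within libraries 3 and 4 it was 1.19, and it was 1.18 without the 2 libraries that held collagen transcripts.

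MX2 was at 34.1, 32.9, 35.997 and 35.8 CPM in wt and at 47.6, 45.1, 48.6 and 48.7 CPM in PHF8. The groups did not overlap, and the spread within each was small beside the gap. The change was 0.45 ± 0.06 (SE, adjusted p = 0.000167 by limma, 95% interval 0.33 to 0.57), with 0.46 and 0.43 in the library pairs and 0.45 without the collagen libraries.

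MX1 was at 4.96, 4.53, 4.57 and 3.75 CPM in wt and at 9.98, 9.25, 7.75 and 7.02 CPM in PHF8. Again no wt library reached a PHF8 library, with PHF8 libraries 3 and 4 the lower of the group. The change was 0.85 ± 0.36 (SE, adjusted p = 0.125 by limma, 95% interval 0.06 to 1.65). This fit estimates 1 spread over all 3 lines, and the F279S values of MX1 were wide (SD 5.59 CPM). Blocking on the replicate number, the same change had an SE of 0.27 and an adjusted p of 0.0256 by limma, beside 41.4% of all genes called under that block. When each library pair was averaged and entered once, MX1 was not called (0.85 ± 0.36, adjusted p = 0.178 by limma). Libraries 1 and 2 gave 0.95 ± 0.11 by themselves, and libraries 3 and 4 gave 0.76 ± 0.12 (adjusted p = 1.5e-07 and 0.00381 by limma), where 51.4% and 42.1% of all genes were called.

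The F279S line asked what remains without catalytic activity. RSAD2 stood at the wt level, MX2 lay slightly above wt, and MX1 was high in one library pair and at the wt level in the other. None of the 3 passed the test, where 0.0146% of genes (2 of 13683, PHF8 among them) were called higher and 0% lower by limma. Before adjustment, p was below 0.05 for 504 higher and 367 lower genes. The voom form of limma on the recovered reads gave 2 and 0 calls.

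RSAD2 in F279S was at 6.14, 6.41, 6.59 and 5.75 CPM, within the range of wt apart from library 4, which lay just under it. The change was -0.03 ± 0.11 (SE, adjusted p = 1.00 by limma), with a 95% interval of -0.26 to 0.21. MX2 was at 39.8, 41.4, 40.3 and 38.7 CPM, and each value lay above all 4 wt values and under all 4 PHF8 values. Its change against wt was 0.20 ± 0.06 (adjusted p = 0.371 by limma, 95% interval 0.08 to 0.33). The values of F279S and wt did not overlap for 4.18% of all genes. MX2 ranked 122 by p among the 13683 genes.

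MX1 in F279S was at 13.8 and 13.4 CPM in libraries 1 and 2 and at 3.74 and 4.10 CPM in libraries 3 and 4. The first pair lay above every wt and PHF8 library, and in the second library 4 lay among the wt values and library 3 just under the lowest of them, 3.75 CPM. Over all 4 libraries the mean was 8.76 ± 5.59 CPM and the change 0.68 ± 0.36 (SE, adjusted p = 0.846 by limma). A mean over these libraries describes neither pair.

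**Figure D2:**
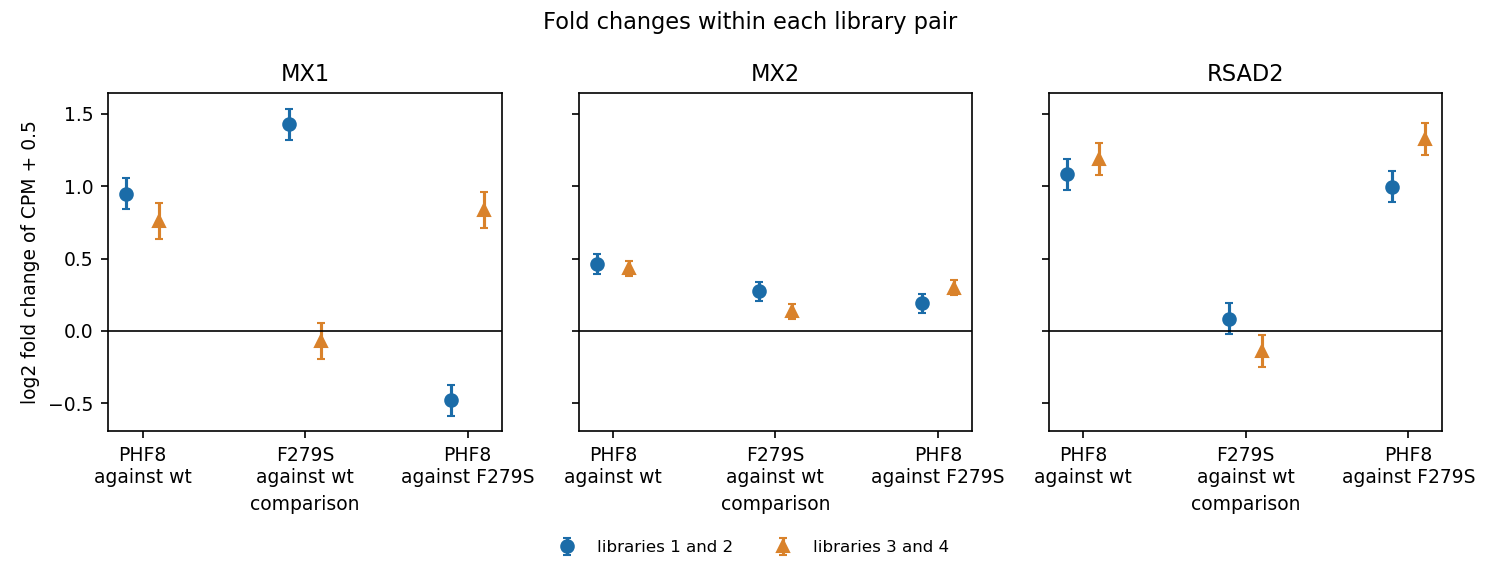
Log2 fold change (of CPM + 0.5) of each gene within libraries 1 and 2 (circles) and libraries 3 and 4 (triangles), for the 3 comparisons of the first experiment; error bars are the SE. For MX2 and RSAD2 the pairs differed by at most 0.33, which was RSAD2 in PHF8 against F279S. MX1 in F279S against wt was 1.43 and -0.07 and in PHF8 against F279S -0.48 and 0.83.

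The pairs were then compared directly. MX1 in F279S was 3.47 times as high in libraries 1 and 2 as in libraries 3 and 4, a log2 difference of -1.67 ± 0.11 for libraries 3 and 4 (SE, adjusted p = 2.5e-07 by limma). The same difference was -0.18 ± 0.11 in wt (adjusted p = 0.197) and -0.36 ± 0.11 in PHF8 (adjusted p = 0.0325). Against wt, MX1 in F279S was 2.86-fold higher in libraries 1 and 2 (1.43 ± 0.11, adjusted p = 2.2e-09 by limma) and 0.942-fold in libraries 3 and 4 (-0.07 ± 0.12, adjusted p = 0.814). Of all genes, 14.2% and 0.0877% were called in the respective pairs. The test of the difference between the pairs gave -1.50 ± 0.16 (adjusted p = 0.000476 by limma), a call made for 0.899% of genes. PHF8 RNA differed little between the pairs of F279S (5557 ± 316.7 and 5205 ± 288.7 CPM, n = 2 each). COL1A1 was at 1.12 and 20.5 CPM and COL1A2 at 0.216 and 10.2 CPM in F279S libraries 1 and 2. MX1 was at 13.8 and 13.4 CPM there. The parts of PHF8 RNA and of the collagen transcripts in this split were not tested.

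MX2 and RSAD2 were not called in this test. In F279S MX2 averaged 40.6 ± 1.15 and 39.5 ± 1.15 CPM in the pairs (n = 2 each). The difference between pairs in its change against wt was -0.14 ± 0.08 (adjusted p = 0.697 by limma). RSAD2 averaged 6.28 ± 0.191 and 6.17 ± 0.595 CPM in the pairs of F279S. Its difference between pairs was -0.22 ± 0.14 (adjusted p = 0.737 by limma). Within the PHF8 line, RSAD2 was higher in libraries 3 and 4 than in libraries 1 and 2 (0.30 ± 0.10, adjusted p = 0.0432 by limma). There 27.1% of all genes were called. RSAD2 was not called between the pairs of wt (0.20 ± 0.10, adjusted p = 0.111) or F279S (adjusted p = 0.834 by limma), and MX2 was called in no line. For PHF8 against wt, where 30.5% of all genes differed between the pairs, 0 of the 3 members were called, with adjusted p of 0.406 for MX1, 0.812 for MX2 and 0.610 for RSAD2 (limma). The unadjusted p was under 0.05 for none of them, and limma voom called 0 as well.

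Against F279S, the PHF8 line set the active form beside the inactive one, using the same PHF8 and F279S libraries. PHF8 RNA in the PHF8 line was 0.375 times that in F279S, and its part in these differences was not tested. RSAD2 was 2.35-fold higher in PHF8 (1.16 ± 0.11, adjusted p = 2.5e-05 by limma), and the groups were far apart. MX2 was 1.19-fold higher (0.24 ± 0.06, adjusted p = 0.00898 by limma), and its lowest PHF8 value, 45.1 CPM, lay above its highest F279S value, 41.4 CPM. The MX2 call was lost when each library pair was averaged and entered once (0.24 ± 0.08, adjusted p = 0.121 by limma). Over all genes, 12.2% were called higher, 7.92% lower and 26.6% had groups that did not overlap.

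MX1 was not called between PHF8 and F279S over all libraries (0.18 ± 0.36, adjusted p = 0.7995 by limma, 95% interval -0.62 to 0.97). Within the pairs it went both ways. In libraries 1 and 2 MX1 was lower in PHF8 (-0.48 ± 0.11, adjusted p = 0.000689), and in libraries 3 and 4 it was higher (0.83 ± 0.12, adjusted p = 0.00328 by limma), where 53.8% and 35.2% of genes were called. The difference between the pairs was 1.31 ± 0.16 (adjusted p = 0.000288 by limma), a call that 21.8% of genes shared. RSAD2, at 1.00 and 1.33, and MX2, at 0.19 and 0.30, were higher in PHF8 in both pairs.

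In the second experiment all 3 genes took the order ERAA, ERPHF8, ERDD, and MX1 moved most. From ERAA to ERDD, MX1 rose 26.2-fold, RSAD2 6.73-fold and MX2 3.74-fold. From ERAA to ERPHF8 the rises were 6.06-fold, 3.09-fold and 1.62-fold. In ERDD against ERAA 34.8% of tested genes were called higher and 33.3% lower, so the call itself says little here and the size of the change says more.

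MX1 was at 17.6 and 17.5 CPM in the ERAA libraries, 457 and 462 CPM in ERDD, and 105.8 and 107 CPM in ERPHF8. The libraries of a group were nearly equal and the groups far apart. ERDD against ERAA gave 4.67 ± 0.04 (SE, adjusted p = 3.9e-10 by limma), the rank 3 rise among 13831 genes and rank 1 by p. MX1 kept rank 3 in ERPHF8 against ERAA, at 2.57 ± 0.04 (adjusted p = 4.6e-08), where 29.7% of genes were called higher and 24.1% lower.

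RSAD2 was at 14.2 and 12.65 CPM for ERAA, 89.7 and 91.1 CPM for ERDD, and 40.3 and 42.7 CPM for ERPHF8. It rose by 2.71 ± 0.07 in ERDD (adjusted p = 4.0e-08, rank 26) and by 1.59 ± 0.07 in ERPHF8 (adjusted p = 4.8e-06 by limma, rank 16). MX2 started highest, at 64.4 and 60.2 CPM in ERAA, and reached 229.1 and 236.4 CPM in ERDD and 101 and 99.8 CPM in ERPHF8. Its changes against ERAA were 1.89 ± 0.05 (adjusted p = 4.7e-08, rank 62) and 0.69 ± 0.05 (adjusted p = 2.9e-05 by limma, rank 366).

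ERDD stood above ERPHF8 for each member, by 2.10 ± 0.04 for MX1, 1.21 ± 0.05 for MX2 and 1.11 ± 0.07 for RSAD2 (adjusted p = 1.3e-07, 1.6e-06 and 1.3e-05 by limma), while 24.8% of genes were called higher and 28% lower. The 4-OHT label differs between these lines too, and the form and the label cannot be told apart. PHF8 RNA in ERDD was 0.516 times that in ERAA, and its part in these differences was not tested. Between the experiments, ERAA held 3.95 times the MX1, 1.79 times the MX2 and 2.11 times the RSAD2 CPM of wt, with no test because experiment and line cannot be told apart.

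**Figure D3:**
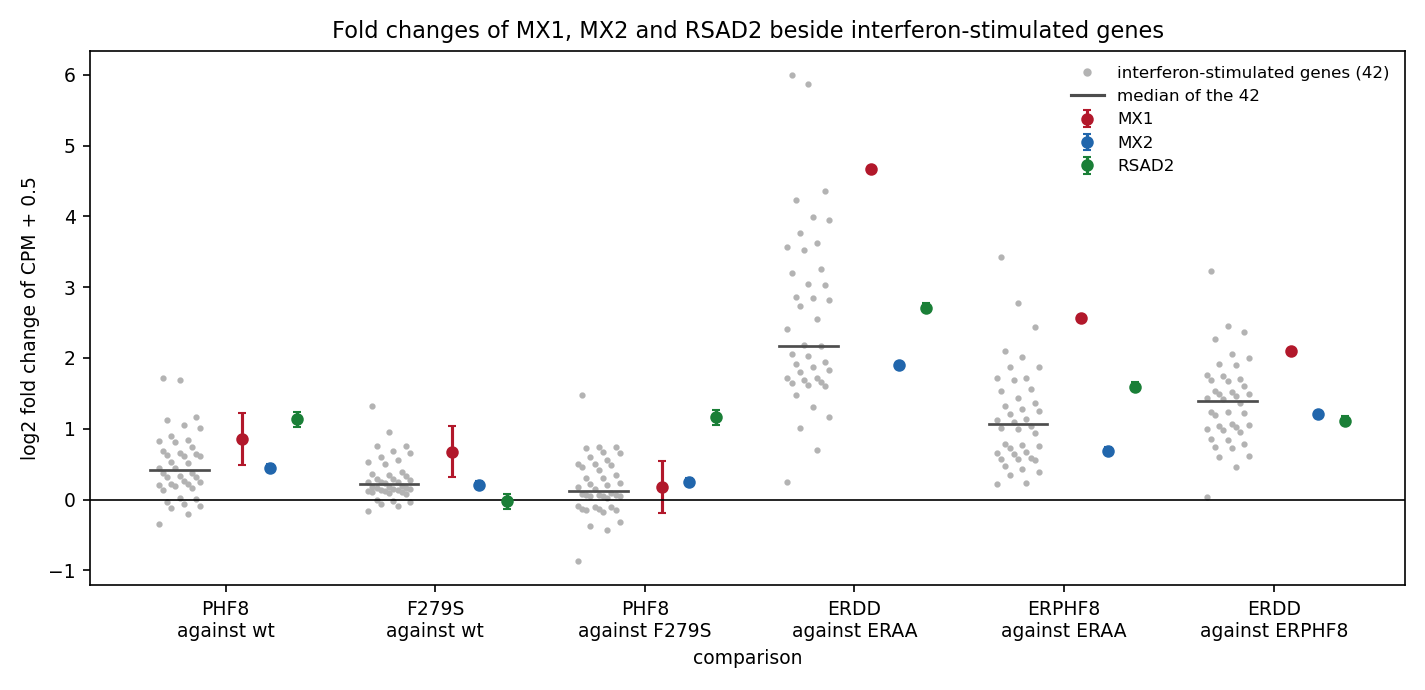
Log2 fold change (of CPM + 0.5) of MX1, MX2 and RSAD2 (coloured, bars are the SE) and of 42 other interferon-stimulated genes (grey, with their median) in the 6 comparisons. In ERDD against ERAA, MX1 at 4.67 lay above all but 2 of the grey points and MX2 at 1.89 lay under their median of 2.17.

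Because the genes moved by unequal factors, their proportions shifted. Within a library, the MX2 to MX1 ratio of CPM averaged 7.89 ± 1.17 in wt, 5.71 ± 1.07 in PHF8 and 6.55 ± 4.15 in F279S (SD, n = 4 each). It was 3.54 ± 0.162 in ERAA, 0.945 ± 0.0191 in ERPHF8 and 0.506 ± 0.00727 in ERDD (n = 2 each). MX2 thus had more reads than MX1 in wt and fewer in ERDD. For F279S the libraries read 2.89, 3.08, 10.8 and 9.44, again split by pair.

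In the first experiment the RSAD2 to MX2 ratio was highest in the PHF8 line, although no ratio test passed after adjustment. The log2 ratio (of CPM + 0.5) was -2.43, -2.39, -2.21 and -2.42 in wt, -1.82, -1.76, -1.53 and -1.59 in PHF8, and -2.60, -2.60, -2.53 and -2.65 in F279S. The 3 lines did not overlap, with PHF8 the highest and F279S the lowest. PHF8 exceeded wt by 0.69 and F279S by 0.92, and F279S was under wt by a difference of -0.23 (exact permutation test, two-sided, p = 0.0286 for each, adjusted p = 0.0857 over 9 ratio tests). A p of 0.0286 is the smallest that 4 against 4 libraries can give. With 3 of 9 tests at that p, none can pass the adjustment, whatever the size of the difference. The test treats the 4 libraries of a line as independent, although they came in library pairs. The 6 tests of ratios with MX1 had overlapping groups. In the second experiment 2 against 2 allows no p under 0.333, and the ratio is given as values, with a ratio of CPM of 0.215 ± 0.00742 for ERAA, 0.388 ± 0.00429 for ERDD and 0.412 ± 0.0218 for ERPHF8.

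**Figure D4:**
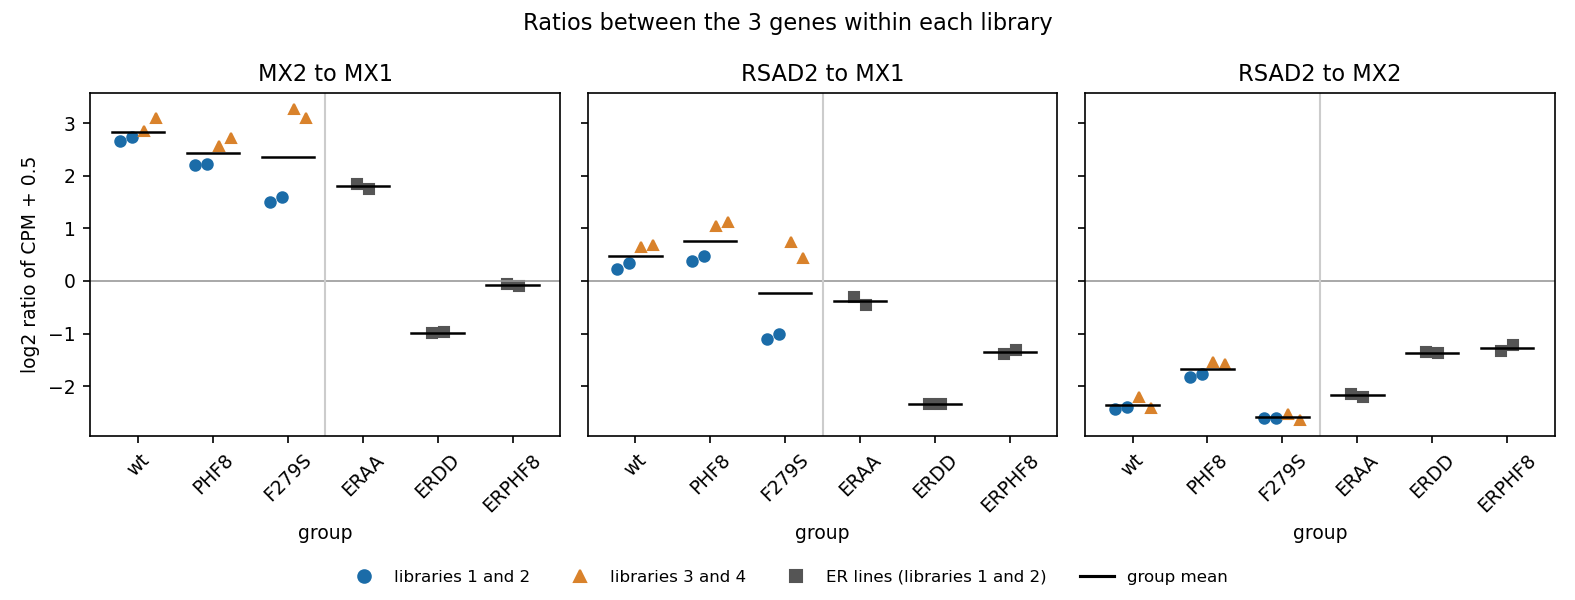
Log2 ratio of CPM + 0.5 between the 3 genes in every library, by group; symbols and bars are as in the plot of levels. The MX2 to MX1 ratio falls below 0 in ERDD and ERPHF8, and the RSAD2 to MX2 ratios of wt, PHF8 and F279S do not overlap.

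Per kilobase of exon the order of levels changed between groups. In wt, MX2 was at 2.66 ± 0.113 CPM per exon kb, RSAD2 at 1.32 ± 0.146 and MX1 at 0.517 ± 0.0586 (n = 4). In PHF8, RSAD2 (3.02 ± 0.379) drew near MX2 (3.64 ± 0.127), with MX1 at 0.986 ± 0.157. In ERAA the order was MX2 4.77 ± 0.227, RSAD2 2.78 ± 0.227 and MX1 2.04 ± 0.0039 CPM per exon kb (n = 2). In ERDD, MX1 led at 53.3 ± 0.424, and RSAD2 (18.7 ± 0.211) and MX2 (17.8 ± 0.398) were close together. Intron reads may enter these values, since how reads were counted was not given. Per kilobase of span, RSAD2 in ERDD (2.79 ± 0.0314 RPKM) lay well under MX2 (4.91 ± 0.109 RPKM).

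The genes whose pattern was most like each member's were found by Pearson r over all 18 libraries, each experiment centred on its own mean, among 13475 genes. The points share libraries and group means, so r describes and is not tested. For MX1 they were OAS2 (0.99), IFI44 (0.99), IFIT1 (0.98), OAS3 (0.98) and EPSTI1 (0.98), all of them interferon-induced. For MX2 they were PLSCR1 (0.98), IFI27, IFITM1, FUCA2 and USP18 (0.97 each). For RSAD2 they were DDX58 (0.97), which encodes RIG-I, PHTF1 (0.97), DDX60 (0.97), BEND4 (0.96) and IL2RB (0.96). Among the members r was 0.91 for MX1 with MX2, 0.83 for MX1 with RSAD2 and 0.91 for MX2 with RSAD2. Over the 12 libraries of the first experiment these were 0.55, 0.35 and 0.88. For the genes named as most like MX2, r over those 12 ran from 0.68 (USP18) to 0.91 (PLSCR1). It ran from 0.89 (OAS3) to 0.97 (OAS2) for MX1, and from 0.92 (DDX60) to 0.98 (DDX58) for RSAD2.

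The split of MX1 in F279S was shared with other genes of its class. OAS2, OAS3 and OAS1, which make 2-5A to activate RNase L, had differences between the pairs in F279S against wt of -1.34 ± 0.11, -0.92 ± 0.09 and -0.96 ± 0.12 (SE, adjusted p = 6.5e-05, 0.000241 and 0.00163 by limma). IRF7, an inducible regulator of interferon genes, had -0.99 ± 0.12 (adjusted p = 0.00118). DDX58 and PLSCR1 were at -0.19 and -0.01 and were not called (adjusted p = 0.708 and 0.990). Of 42 interferon-stimulated genes without the members, 7 were called lower and 1, CMPK2, higher in this test. Of all genes, 0.899% were called in either direction. The mean log2 level of the 42 split the same way. F279S libraries 1 and 2 had 4.03 and 4.02, within the 3.96 to 4.06 of PHF8, and F279S libraries 3 and 4 had 3.61 and 3.62, nearer to the 3.49 to 3.56 of wt.

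Across the lines, these 42 genes had 22 higher and 1 lower in PHF8 against wt, beside 12.7% and 8.28% of all genes. Their median log2 change was 0.41, against 0.01 over all genes. Of them OAS1 went from 5.76 ± 1.23 to 19.4 ± 0.83 CPM (1.69 ± 0.16, adjusted p = 2.1e-05 by limma), and LGALS3BP, a secreted glycoprotein, changed by 1.72 ± 0.19. Without the 2 collagen libraries the counts were 15 and 0, and those over all genes fell too, from 1741 and 1133 to 1390 and 761. In F279S against wt 0 were called (median 0.21), with 8 at an unadjusted p below 0.05, 0 by limma voom, and 3 higher when the replicate number entered as a block, where 2.18% of all genes were called. Libraries 1 and 2 alone gave 26 higher and 1 lower, and libraries 3 and 4 alone 0 (6 at an unadjusted p below 0.05). Of all genes, 14.2% and 0.0877% were called in the respective pairs, in either direction. PHF8 against F279S gave 11 higher and 0 lower (median 0.12), beside 12.2% and 7.92% of all genes. At an unadjusted p below 0.05, 5 were lower, and limma voom called 0 lower. Under the block 13 were higher and 4 lower, beside 41.1% of all genes called. Without the 2 collagen libraries 6 were higher, beside 947 higher and 550 lower over all genes. RSAD2 ranked 4 and 2 of 45 by change in PHF8 against wt and against F279S, and MX1 ranked 9 and 22.

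In the ER lines nearly the whole class rose. In ERDD against ERAA 42 of 42 were higher (median 2.17, against -0.000863 over all genes), in ERPHF8 against ERAA 40 (median 1.07) and in ERDD against ERPHF8 41 (median 1.39). Of all genes, 34.8%, 29.7% and 24.8% were called higher in these comparisons. IFI27 (5.999 ± 0.0876) and IFI44L (5.88 ± 0.07) were the 2 that rose more than MX1 from ERAA to ERDD. OAS2 went from 35.2 ± 0.085 to 486.7 ± 8.32 CPM (3.77 ± 0.04, adjusted p = 1.0e-09 by limma). MX2 ranked 29 of 45 and RSAD2 20 of 45. These comparisons share their libraries and are not independent of each other.

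The interferon genes themselves were near 0. All 21 listed type I, II and III interferon genes were under the filter, at most 0.145 CPM (IFNA4), and 15 to 19 of them had no read in a given library. No read allows up to 0.0582 to 0.164 CPM (3 reads of the library total, counting error only). The 21 together had 0.172 and 0.122 CPM in ERAA, 0.317 and 0.388 CPM in ERDD, and 0.0738 and 0.221 CPM in ERPHF8. With no filter, limma called 1 of 6 higher in ERDD against ERAA and against ERPHF8, and 1 of 7 in PHF8 against wt. Of all genes, 4879 and 3366 of 18495 and 1799 of 18756 were called higher there. In the other comparisons 0 interferon genes were called. Of 11 genes of interferon signalling, 0 were called higher and 1 lower in PHF8 against wt, namely IRF3 (-0.34 ± 0.10, adjusted p = 0.0378 by limma). Without the 2 collagen libraries IRF3 stood at -0.32 (adjusted p = 0.108 by limma). Of the rest, 0 were higher at an unadjusted p below 0.05 and 0 by limma voom. In ERDD against ERAA 5 of the 11 were higher and 3 lower, near the 34.8% and 33.3% of all genes, so the count says nothing particular of the list. IRF7 (2.33 ± 0.05), IRF9 (1.35 ± 0.06) and STAT2 (0.58 ± 0.06) rose, and JAK1 (-0.24 ± 0.06) and TYK2 (-0.12 ± 0.04) fell.

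Other GTPases of the dynamin superfamily were set beside the MX genes. Of 14 tested in PHF8 against wt, 5 were higher and 1 lower (median 0.08), where 12.7% and 8.28% of all genes were. GBP2 (1.80 ± 0.26) and GBP5 (1.03 ± 0.19), guanylate-binding proteins that interferon gamma induces, were higher, as was the atlastin ATL1 (0.55 ± 0.09), and ATL3 was lower (-0.42 ± 0.07). In ERDD against ERAA 7 of 15 were higher and 2 lower (median 0.07), with 34.8% and 33.3% of all genes called, so the count of those higher is near the background. The 4 with the smallest p were GBP1 at 3.08 ± 0.14, GBP4 at 2.14 ± 0.07, GBP2 at 0.55 ± 0.07 and the mitofusin MFN2 at 0.65 ± 0.04. In F279S against wt 0 were called by limma and 0 by limma voom, with 2 at an unadjusted p below 0.05.

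Of 12 genes that serve viperin, namely CMPK2, FDPS and the machinery that inserts iron-sulphur clusters, CMPK2 was the one called in PHF8 against wt (0.65 ± 0.21, adjusted p = 0.0454 by limma). Without the 2 collagen libraries its change was 0.73 (adjusted p = 0.0669 by limma). CMPK2, which also stands in the list of 42, was at 26.8, 26.7, 16.0 and 14.7 CPM in wt, at 27.0, 25.9, 38.1 and 39.4 CPM in PHF8, and at 20.7, 19.6, 17.99 and 17.7 CPM in F279S. The wt and PHF8 values met in libraries 1 and 2 and were far apart in libraries 3 and 4, and the difference between the pairs was 1.33 ± 0.10 (adjusted p = 1.2e-05 by limma). RSAD2, whose span overlaps it, had 0.10 ± 0.14 for the same test. In the ER lines CMPK2 was at 13.3 and 13.1 CPM (ERAA), 130.4 and 129.8 CPM (ERDD), and 45.5 and 43.3 CPM (ERPHF8). In ERDD against ERAA 7 of the 12 were higher and 1 lower, beside 34.8% and 33.3% of all genes. Among those higher were NDOR1 (0.49 ± 0.07) and CIAPIN1 (0.45 ± 0.05), partners in the electron transfer of cluster assembly, and FDPS, an enzyme of isoprenoid synthesis that viperin binds (0.24 ± 0.04). MMS19 was the lower one (-0.17 ± 0.05).

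Apart from CMPK2 and the MX genes themselves, the nearest listed genes on either side of the members were RNF144A and 3 that were hardly expressed. TMPRSS2, beyond MX1, stayed at or under 0.116 CPM in the first experiment and averaged 0.0242 CPM in ERDD. FAM3B, on the far side of MX2, was not tested; its mean was 0.0368 CPM for ERAA, 0.850 CPM for ERDD and 0.356 CPM for ERPHF8. RNF144A, beyond RSAD2, changed by 0.27 in PHF8 against wt (adjusted p = 0.189 by limma) and by 0.50 in ERDD against ERAA (adjusted p = 0.000429). SOX11, on the other side, averaged at most 0.00497 CPM in any group.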

How the data were processed

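The 3 members and all gene lists were chosen with earlier results of these data known. For each library the authors deposited RPKM values for 19784 genes on hg38. The submitters' processing notes name STAR 2.7.0c, SAMtools 1.9, DESeq2 and the build hg38. How reads were counted, on which strand and with which annotation was not given in the sources used here. Coordinates of 86.9% of genes, all 3 members included, equal GENCODE release 29. RPKM times the span in kilobases gave CPM, and 100% of the values were whole reads within 0.001 reads.

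Log2(CPM + 0.5), computed from the deposited values, was modelled in limma 3.58.1 (R 4.3.3) with a mean-dependent trend in the prior variance, on 13683 genes (at least 1 CPM in 4 libraries) and 13831 genes (in 2 libraries), all groups of an experiment together. p-values were adjusted by Benjamini-Hochberg over all genes tested, and adjusted p below 0.05 was called. The script was tested on simulated data. Named genes were the members, PHF8, the listed neighbours, up to 6 interferon-stimulated genes and up to 4 of each other list by smallest p in PHF8 against wt and in ERDD against ERAA, and the 5 genes most like each member. CD14, COL1A1, COL1A2 and IFNA4 were named after their values were seen. A few genes that the rule selects are not reported here.

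In the first experiment same-numbered libraries deviated together (r 0.484 to 0.908), and other numbers of the same library pair did so too (0.235 to 0.819). Libraries of the other pair deviated the opposite way (r -0.860 to -0.352). The split between the pairs enters all these values, so they cannot show whether single numbers pair the libraries. Libraries of a group differed by more than sampling noise (chi-square per degree of freedom 1.87 to 80.6). Alternatives were a pseudocount of 0.1 CPM, no filter, median-ratio scaling, limma voom on recovered reads, the replicate block, the library pair as a factor or averaged, each pair alone, each library left out and, chosen after seeing the data, crossed numbers in the ER lines and leaving out the 2 libraries with collagen transcripts.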

Additional observations from a re-analysis of the deposited data

Results flagged for a closer look

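MX1 differed between the library pairs of the first experiment in its response to F279S. The difference between pairs in F279S against wt, tested as an interaction term in limma, was -1.50 on the log2 scale (adjusted p = 0.000476), with MX1 at 13.4 to 13.8 CPM in F279S libraries 1 and 2 and 3.74 to 4.10 CPM in libraries 3 and 4. The difference between pairs in PHF8 against F279S was 1.31 (adjusted p = 0.000288 by limma) and rests on the same F279S libraries. MX2 and RSAD2 were not called in either test.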

How the results depend on the processing

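Of the alternative values, 555 kept their direction and their side of the threshold or moved little, 36 counts moved by over 1.5 times, 10 values turned, 7 gained a call and 1 lost one; where they changed, the cause was not tested. With the replicate number as a block, MX1 in PHF8 against wt (0.85) was called, and the calls were 5670 for PHF8 against wt, 298 for F279S against wt (3 of the interferon-stimulated list) and 5620 for PHF8 against F279S (17 of the list), against 2874, 2 (0) and 2750 (11). The block changed no other call of a member. With the library pair as a factor, MX1 (0.85) was called too, and the counts were 5595, 298 (4) and 5565 (19). With pairs averaged they were 1775 (10 of the list), 1 and 1594 (5), and MX2 in PHF8 against F279S (0.24) was not called. In libraries 1 and 2 alone, counts were 7029, 1943 (27) and 7366 (26); MX1 stood at 0.95, 1.43 and -0.48 in the 3 comparisons, MX2 in F279S against wt at 0.27 and RSAD2 there at 0.0848. In libraries 3 and 4 alone, counts were 5765, 12 and 4821 (21), and MX1 stood at 0.76, -0.0725 and 0.83. Without the 2 collagen libraries, the list had 15 calls in PHF8 against wt and 6 in PHF8 against F279S, where 1497 genes were called. With 1 library left out, list calls ran from 15 (without PHF8 library 1) to 22 in PHF8 against wt and from 7 (without PHF8 library 1 or 3, or F279S library 3 or 4) to 12 in PHF8 against F279S. Gene calls ran from 4863 (without ERPHF8 library 2) to 8756 in ERPHF8 against ERAA and from 4306 to 9200 in ERDD against ERPHF8 (4533 and 4306 without ERDD library 1 or 2, 4464 without ERPHF8 library 2); a lone library is assumed to vary like the other groups. RSAD2 in F279S against wt ran from -0.0609 to 0.0413 (above 0 without wt library 3, and at 0.00796 without F279S library 4), MX1 in PHF8 against F279S from -0.12 to 0.46 (below 0 without F279S library 3, and at -0.08 without library 4), and the MX2 to MX1 log2 ratio there from -0.22 to 0.37 (-0.03 without PHF8 library 4, -0.22 and -0.19 without F279S library 1 or 2). In the ER lines same-numbered libraries share only a number (r -0.336 to 0.104), the block changed no member's call, and crossing the ERAA numbers gave 9652, 7784 and 7640 calls. Depth limits MX1 most, with 78 reads at the least.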
